A study of Homo sapiens with 2 samples.

Results

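The data describe EGR1 chromatin immunoprecipitation at the genes of 4 nuclear receptors and 2 FKBP co-chaperones of steroid receptors: PGR, ESR1, NR3C1, NR2F2, FKBP4 and FKBP5. Members are the intervals of the deposited EGR1 list that lie in one of these genes or within 10 kb of it on build GRCh37. They number 9 of the 7709 intervals in the list, and they fell at 4 of the 6 genes. PGR had 2, NR3C1 had 2, NR2F2 had 3 and FKBP5 had 2, while ESR1 and FKBP4 had none.

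The cells were t-HESC, an immortalised human line from the stroma of the endometrium, the lining of the uterus. They were grown in DMEM/F12 with fetal bovine serum and puromycin and received no treatment, so no hormone and no decidualising stimulus was tested. A single ChIP library made with the EGR1 antibody gave the interval list, and 1 input library of the same line was sequenced, each without a replicate. Variation between cultures could therefore not be tested, and the identity of the cells could not be checked against marker genes because no expression was measured. The depth is unknown, since read totals were not used here. The score of an interval is the authors' whole number for its summit, of unstated unit, and ranks intervals within this list only.

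Steroid receptors are transcription factors that are switched on by a hormone. PGR binds progesterone, ESR1 binds oestrogen and NR3C1, the glucocorticoid receptor, binds cortisol. Before the hormone arrives, PGR and NR3C1 are held by the chaperone HSP90 together with co-chaperones, among them the immunophilins FKBP4 (FKBP52), which favours receptor activity, and FKBP5 (FKBP51), which dampens it and is itself a classic glucocorticoid- and progesterone-induced gene. NR2F2 (COUP-TFII) is an orphan nuclear receptor of the endometrial stroma that acts downstream of progesterone signalling. In the endometrium, oestrogen drives growth and progesterone prepares the stroma for decidualization, the change that receives an embryo. EGR1 is an immediate early zinc-finger factor that binds GC-rich DNA. Its motif is written here GCGNGGGCG.

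Most of the 9 intervals had low scores. They ran from 15 to 68 with a median of 19, against a median of 26 and a range of 11 to 336 over all 7709. A score at or above 26 was reached by 2 of the 9, 1 at NR2F2 (27) and 1 at FKBP5 (68), against 51.0% of all intervals. Only the FKBP5 interval was at or above the 90th percentile of 57, which 10.2% of all intervals reached. Width was not low in the same way. The 9 intervals were 227 to 873 bp wide with a median of 411 bp, and 5 of them were at or above the median of 343 bp over all intervals, against 50.1% of the whole list.

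**Figure D1:**
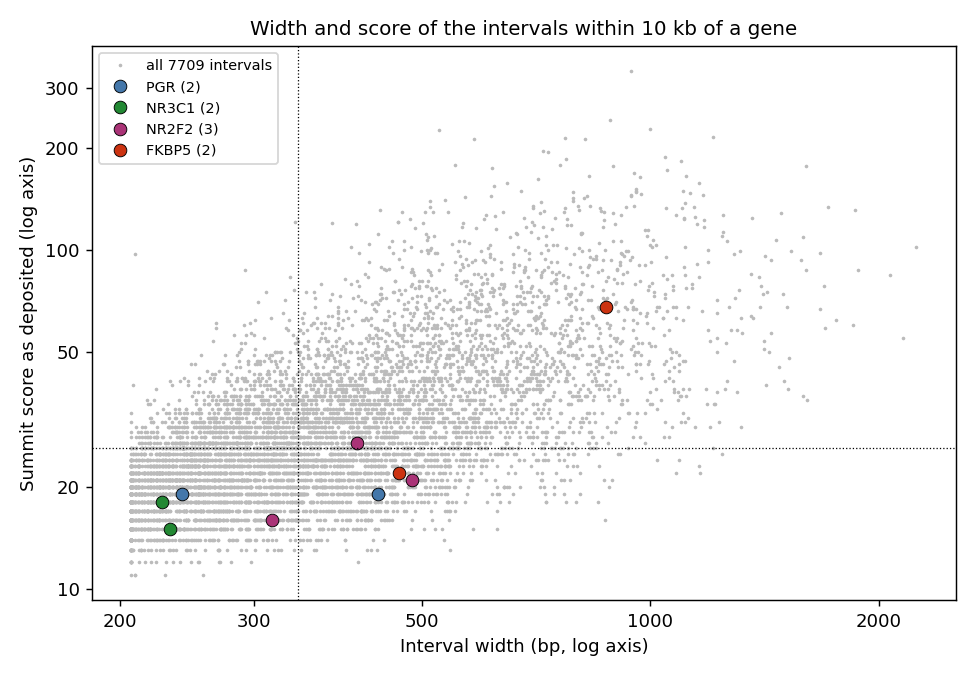
Width (bp, log axis) against summit score (log axis) of each interval, grey for all 7709 and coloured for the 9 within 10 kb of PGR, NR3C1, NR2F2 or FKBP5. Dotted lines are the medians of all intervals, 343 bp and 26. Of the 9, 7 lie below the median score, and 1 FKBP5 interval, at 873 bp and a score of 68, stands apart from the others.

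Position along the genes was uneven. Of the 9 intervals, 6 lay between 3820 bases upstream and 2027 bases downstream of the 5′ end of PGR, NR3C1, NR2F2 or FKBP5. The other 3 were an interval deep inside FKBP5 and a pair beyond the 3′ end of NR2F2. By distance along the gene, the interval inside FKBP5 lay 551 to 86 bases before an inner RefSeq start of that gene. In all, 3 overlapped a gene span as used here, 4 lay upstream and 2 downstream. The RefSeq gene of NR3C1 is longer, so its 2 intervals counted as upstream may lie inside it. The share of all intervals that lie near a gene start was not measured, because gene models on GRCh37 were not used here, so this placement has no background beside it.

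**Figure D2:**
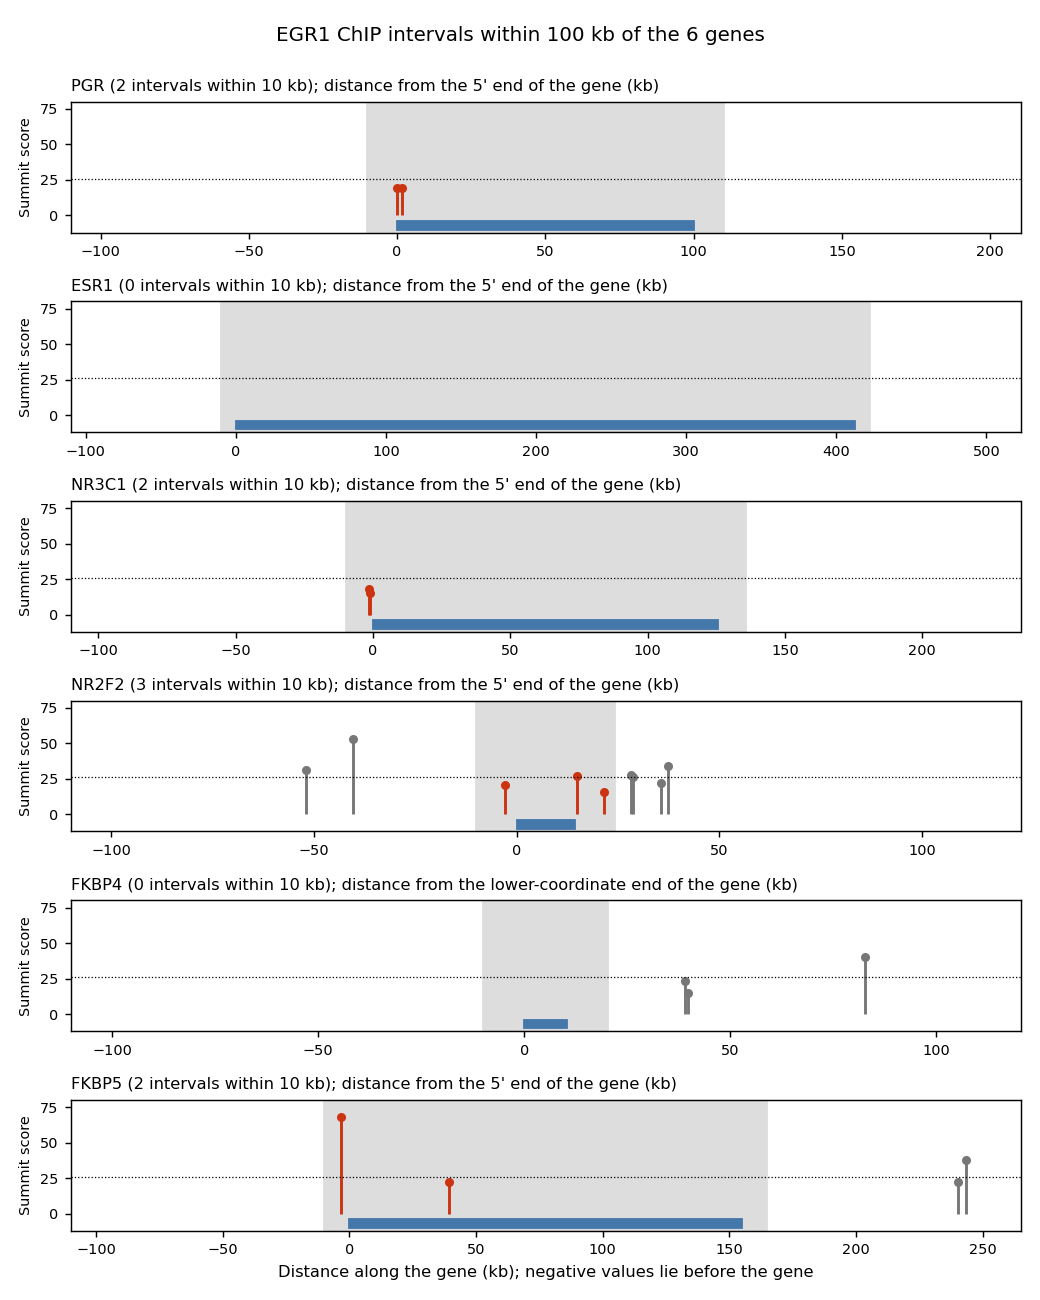
Summit score of each interval within 100 kb of a gene, by distance from the gene's 5′ end in kb (for FKBP4, from its lower-coordinate end). Blue bars are the genes, grey shading is the gene with 10 kb on both sides, red stems are the 9 intervals inside it, grey stems lie outside, and the dotted line is the median score of 26. The stems at PGR and NR3C1 lie at the 5′ end of the gene span used. FKBP5 has 1 of its 4 stems just upstream of its 5′ end, those at NR2F2 lie on both sides of the gene, and the ESR1 panel is empty.

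PGR, the progesterone receptor gene, had both of its intervals at its 5′ end. The gene was taken as chr11:100900355-101000544 on the minus strand. The first interval, chr11:101000338-101000578, was 241 bp wide and spanned the 5′ end itself, from 34 bases upstream to 206 bases downstream. Its summit score was 19, and 22.2% of all intervals scored as low or lower. The second, chr11:100998517-100998953, was 437 bp wide and lay 1591 to 2027 bases inside the gene, with the same score of 19. A stretch of 1384 bases separated the pair, and no other interval was called in the remaining length of the gene or within 100 kb of it. Windows of the same length as PGR with its flanks (120.2 kb), laid end to end along chromosome 11, held at least 1 interval in 21.0% of cases and at least 2 in 8.09%.

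RefSeq on GRCh38.p14 lists 3 start sites for PGR, at 0, 736 and 750 bases from the outermost one, and a gene length of 100190 bases that equals the length on GRCh37. Positions were not converted between builds, so start sites and intervals are set side by side only as distances along the gene. By these distances the first interval spanned the outermost start and ended 530 bases before the start at 736. The second began 841 bases beyond the start at 750. The RefSeq span of PGR-AS1, an antisense RNA gene, reaches 736 bases into PGR, so the first interval cannot be assigned to either gene alone. The RefSeq promoter of the outermost start (GRCh38.p14, chr11:101129764-101130063, minus strand, 250 bases before to 50 after the start) is shown because an interval covered this start. Capitals mark the GC box GGGCGG, the site of SP1-type factors, searched on both strands.
PGR outermost start: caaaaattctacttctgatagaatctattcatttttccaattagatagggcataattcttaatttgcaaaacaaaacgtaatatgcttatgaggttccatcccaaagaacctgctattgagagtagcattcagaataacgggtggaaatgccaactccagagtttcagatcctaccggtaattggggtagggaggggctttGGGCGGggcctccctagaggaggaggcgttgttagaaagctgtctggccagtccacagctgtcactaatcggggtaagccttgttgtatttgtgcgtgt
This promoter was 44.3% G and C, against a median of 58.7% over 34943 RefSeq promoters. It held 1 GC box, a sequence found in 44.9% of all these promoters, and no match to GCGNGGGCG, which 9.41% hold. The GC box lay 49 to 44 bases before the start. By the distances above it was outside the interval, which began 34 bases before the start. The promoters of the starts at 736 and 750 were richer in G and C (64.3% and 66.0%). They held 2 and 4 GC boxes, and neither held a match to GCGNGGGCG. These promoters overlap and share GC boxes.

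NR3C1, the glucocorticoid receptor gene, had a close pair of intervals just upstream of the 5′ end used here. The gene was taken as chr5:142657496-142783254 on the minus strand. One interval, chr5:142784271-142784503, was 233 bp wide and lay 1017 to 1249 bases upstream. Its score of 15 was the lowest of the 9, and 5.38% of all intervals scored as low or lower. The other, chr5:142784764-142784990, was 227 bp wide, lay 1510 to 1736 bases upstream and had a score of 18. With 260 bases between their edges, the pair formed 1 site when neighbours within 1000 bp were joined. Whether they are 1 enriched stretch cut in parts was not tested. None was called inside the span used, nor anywhere else within 100 kb of it. Of the windows of this length (145.8 kb) on chromosome 5, 17.7% held at least 1 interval and 6.39% at least 2.

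RefSeq on GRCh38.p14 lists 7 start sites for NR3C1 over 32.2 kb, and its gene is longer there than the span used here (157582 against 125759 bases). The difference, 31823 bases, is close to the 31826 bases between the outermost start and an inner one. If the 3′ ends match on both builds, the 5′ end used here is this inner start. The pair would then lie inside the RefSeq gene, and the farther interval would cover the start 30157 bases from the outermost one. Positions were not converted between builds, so this placement was not tested. Over the 7 promoters, GC content ran from 34.7 to 82.3%. The GC box was present in 5 of the 7, and GCGNGGGCG in 0 of the 7, against 44.9% and 9.41% of all RefSeq promoters.

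ESR1, the oestrogen receptor alpha gene, had no interval. It was taken as chr6:152011631-152424409, 412.8 kb long and the longest of the 6 genes. The nearest interval on the lower side was 238 kb away, at chr6:151773031-151773482, with a score of 40. On the higher side it was 880 kb away, at chr6:153304205-153304613, with a score of 24. ESR1 thus lay in a stretch of 1531 kb without an interval. Stretches of at least this length numbered 33 of the 382 between neighbours on chromosome 6 and made up 53.0% of that chromosome's length from first to last interval. Windows of the length of ESR1 with its flanks (432.8 kb) held at least 1 interval in 42.6% of cases, so an empty window of this length was common on chromosome 6.

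A match to the EGR1 motif without a called interval was present at ESR1. RefSeq lists 6 start sites on GRCh38.p14, where the gene is also longer than the span used here. Of their 6 promoters, 1 held GCGNGGGCG and 2 held a GC box, against 9.41% and 44.9% of all RefSeq promoters. The promoter with the EGR1 motif belongs to the start 151.0 kb from the outermost one (chr6:151807432-151807731, plus strand). It is shown beside the promoters of PGR and FKBP5 that an interval reached in part. By distance along the gene, no match to GCGNGGGCG in those promoters lay within an interval either. In the ESR1 sequence, matches to GCGNGGGCG and GGGCGG are in capitals. The matches overlap, and both are on the opposite strand.
ESR1 start at 151.0 kb: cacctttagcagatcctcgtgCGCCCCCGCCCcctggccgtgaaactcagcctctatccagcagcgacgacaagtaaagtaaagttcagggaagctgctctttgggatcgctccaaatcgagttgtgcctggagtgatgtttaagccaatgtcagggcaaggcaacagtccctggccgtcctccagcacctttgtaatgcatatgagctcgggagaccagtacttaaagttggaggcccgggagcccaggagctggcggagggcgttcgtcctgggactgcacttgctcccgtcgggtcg
The motif lay 229 to 221 bases before the start. A match of letters is not a binding site, and the absence of an interval in 1 library of unknown depth does not show that EGR1 was absent.

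NR2F2, which encodes COUP-TFII, had the most intervals of the 6 genes, all of them outside the gene itself. It was taken as chr15:96869157-96883492 on the plus strand, only 14.3 kb long. The upstream interval, chr15:96866081-96866565, was 485 bp wide and lay 2592 to 3076 bases before the 5′ end, with a score of 21. An interval 451 bases beyond the 3′ end, chr15:96883943-96884353, was 411 bp wide and had a score of 27, just above the median of all intervals. The third, chr15:96890613-96890929, lay 7121 bases beyond the 3′ end and had a score of 16. Of the 2309 windows of this length (34.3 kb) on chromosome 15, 7.71% held at least 1 interval and 0.173% at least 3, which is 4 windows. The windows include the NR2F2 locus itself, which accounts for at least 1 of these 4.

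The intervals around NR2F2 continued beyond 10 kb. There were 8 within 50 kb and 9 within 100 kb, more than at any other of the 6 genes. Beyond the 3′ end, a close pair 13.7 kb and 14.2 kb away had scores of 28 and 26, and was followed by intervals 20.9 kb and 22.8 kb away with scores of 22 and 34. The interval 13.7 kb away was the nearest one left out by the limit of 10 kb, and the one 7.12 kb away was the farthest one kept. On the upstream side, an interval 40 kb away, chr15:96828558-96829207, had a score of 53, the highest within 100 kb of NR2F2. Another, 51.9 kb away, had a score of 31. No further interval was called out to 500 kb on either side. In RefSeq on GRCh38.p14 the antisense RNA gene NR2F2-AS1 reaches 1315 bases into NR2F2 and runs 199 kb upstream of it, so an upstream interval cannot be assigned to NR2F2 alone. The RefSeq promoters at hand for NR2F2 belong to 2 inner starts, 6.52 kb and 7.72 kb from its 5′ end on GRCh38.p14, and the gene lengths on the builds differ. They were 61.0% and 62.0% G and C, the second held 1 GC box, and neither held GCGNGGGCG.

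FKBP4, the gene of the co-chaperone FKBP52, had no interval. It was taken as chr12:2904108-2914576, 10.5 kb long and the shortest of the 6 genes. On the higher side the nearest interval was 28.5 kb away, at chr12:2943048-2943305, and its score was 23. Next came one at chr12:2943771-2943977 with a score of 15 and, 72.0 kb from the gene, by one with a score of 40. On the lower side the nearest was 154 kb away and had a score of 48. Windows of the length of FKBP4 with its flanks (30.5 kb) held at least 1 interval in 7.36% of cases on chromosome 12. A window without one was thus the usual case at this length.

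FKBP5, the gene of the co-chaperone FKBP51, had the interval with the highest score of the 9. The gene was taken as chr6:35541362-35696360 on the minus strand. The interval chr6:35699308-35700180 was 873 bp wide and lay 2948 to 3820 bases upstream of the 5′ end. Its score was 68, and 93.2% of all intervals scored lower. The second interval, chr6:35656778-35657243, lay inside the gene, 39117 to 39582 bases from the 5′ end. It was 466 bp wide and its score of 22 was below the median. Of the windows of this length (175 kb) on chromosome 6, 22.5% held at least 1 interval and 8.87% at least 2.

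The upstream FKBP5 interval was closer to another gene. In RefSeq on GRCh38.p14 the span of ARMC12 begins 2941 bases upstream of the 5′ end of FKBP5, and by this distance the interval fell inside ARMC12. It cannot be assigned to either gene from these data.

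The inner FKBP5 interval lay beside a start site. RefSeq lists 2 start sites for FKBP5 on GRCh38.p14, 39668 bases apart, and gene lengths on the builds differ by 5 bases (154994 on GRCh38.p14, 154999 on GRCh37). By distance along the gene, the inner interval covered the stretch from 551 to 86 bases before the second start, with its summit 204 bases before it. The promoter of this second start (GRCh38.p14, chr6:35688866-35689165, minus strand) is shown because the interval reached into it. Capitals mark GCGNGGGCG and GGGCGG.
FKBP5 second start: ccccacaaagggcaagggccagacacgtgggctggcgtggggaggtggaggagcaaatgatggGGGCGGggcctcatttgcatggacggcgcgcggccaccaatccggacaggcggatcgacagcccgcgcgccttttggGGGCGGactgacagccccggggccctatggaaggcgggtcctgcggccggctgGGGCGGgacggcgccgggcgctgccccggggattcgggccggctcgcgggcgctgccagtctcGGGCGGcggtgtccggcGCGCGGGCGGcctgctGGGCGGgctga
It was 76.0% G and C, above 92.7% of all RefSeq promoters or equal to them. It held 6 GC boxes and 1 match to GCGNGGGCG, at 23 to 31 bases after the start, which overlaps a GC box and lies outside the interval by the distances above. Of the 6 GC boxes, those at 187 to 182 and 110 to 105 bases before the start lay within the stretch covered by the interval. The promoter of the outermost start, which no interval covered, was 55.7% G and C and held neither motif.

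**Figure D3:**
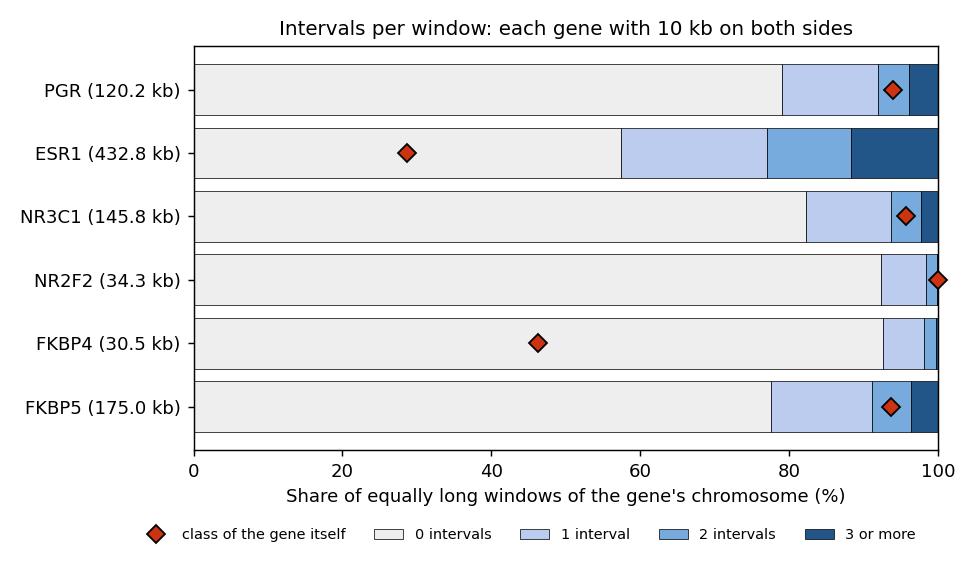
Share (%) of equally long windows of a gene's chromosome with 0, 1, 2 or at least 3 intervals, 1 bar per gene; the window length in brackets is the gene with 10 kb on both sides, and the red diamond marks the class the gene itself is in. NR2F2 is in a class that 0.173% of windows share, with its own locus among them. ESR1 and FKBP4 are in the most common class, and PGR, NR3C1 and FKBP5 are in the class with 2 intervals.

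Read by role, the receptor genes PGR and NR3C1 each had 2 intervals with scores of 15 to 19, and the receptor gene ESR1 had none. NR2F2 had 3 with scores of 16 to 27. Of the co-chaperone genes, FKBP5 had 2 with scores of 22 and 68 and FKBP4 had none. Some of these intervals cannot be assigned to the named gene alone. Among them is the one with a score of 68, which by distance fell inside ARMC12. With 1 library, whether these genes differ from one another beyond the error of the assay could not be tested. The windows are laid without regard to genes and include the gene loci themselves and unsequenced gaps. Their shares are given as a description only.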

How the data were processed

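Chromatin immunoprecipitation and sequencing with an EGR1 antibody was done on t-HESC cells (1 ChIP and 1 input library). The tools named in the submitters' processing notes are BWA, MACS2 2.1.0 and MACS, and the build is GRCh37.p2. Their options and thresholds are not stated there. Per the labels' protocols the libraries were size-selected and amplified by PCR, and how duplicate reads were treated is not given. The authors deposited interval positions, summit positions and 1 score per summit, whose unit is not given. Summits and intervals were joined by row. Printed starts are 1-based.

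An interval was a member where any part lay in a gene or within 10 kb of it. The gene spans on GRCh37 were supplied with the definition of the gene set, and strands are from RefSeq. Windows as long as a gene with both flanks were laid end to end from each chromosome's first interval. RefSeq promoters on GRCh38.p14 matched 5 of the 6 genes. The window counts and the joining of neighbours were tested on simulated data. The genes and measures were chosen with earlier results of these data known. Other genes of the steroid receptor pathway were not analysed, because gene positions on GRCh37 were not at hand. Alternatives varied the distance, the score limit, the joining of neighbours and the start of the windows. Python 3.11.15, numpy 2.4.6, pandas 2.3.3 and matplotlib 3.10.9 were used.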

Additional observations from a re-analysis of the deposited data

How the results depend on the processing

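With a distance of 0 kb in place of 10 kb, 3 intervals and 2 genes (PGR and FKBP5) remained by the gene spans used here. NR3C1 is longer in RefSeq and may keep its intervals at 0 kb by that span. The intervals numbered 8 at 5 kb, 16 at 50 kb and 20 at 100 kb, and the genes with one 4, 5 and 5; FKBP4 joined at 50 kb, and ESR1 had 0 at every distance. At a score of 26 or more there were 2 intervals at 2 genes (NR2F2 and FKBP5), and at 57 or more there was 1 interval at 1 gene (FKBP5). Joining neighbours within 1000 bp gave 8 sites at 4 genes, with NR3C1 at 1. Taking the summit in place of the interval gave 9 intervals at 4 genes. Laying the windows from the middle of the first one moved the shares with an interval by at most 0.765 percentage points. The shares with at least 2 or at least 3 intervals, among them the 0.173% for NR2F2, were not recomputed from that start. No replicate could be left out with 1 ChIP library. No paired analysis was possible because the series has 1 ChIP library and no test was run. The unknown depth limits each absence of an interval.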

Other observations

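Wider surroundings differed between the genes. Within 500 kb, FKBP5 had 11 intervals, NR2F2 had 9, FKBP4 had 5, ESR1 had 4 and PGR and NR3C1 had 3 each. At NR2F2 all 9 lay within 100 kb of the gene, whereas at FKBP5 only 4 did. PGR had no interval besides its pair for 342 kb on the 3′ side and 917 kb on the 5′ side, and the next ones had scores of 57 and 43. The closest interval beyond the 3′ end of NR3C1 was 184 kb away with a score of 13. These stretches were described after the values were seen, and none was tested.

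Of the 9 summits at the gene set, 7 fell on exact multiples of 32 bp, as did 77.2% of all summits, so distances from a summit to a start site are not exact to the base.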
